A study of Homo sapiens with 11 samples.

Results

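The 10 genes that encode Menin, the methyltransferase KMT2A, its close relative KMT2B and the chromatin and elongation cofactors that KMT2A fusions depend on were followed through RNA sequencing of MOLM-13 cells. They were MEN1, KMT2A, KMT2B, PSIP1, DOT1L, MLLT3, MLLT1, AFF1, AFF4 and ASH2L, a list of names set by known roles in the complex. No measured value enters that list, although it was drawn up with earlier results of these data known. They are 10 of 38557 annotated genes, and all 10 passed the filter on low counts. MOLM-13 is an established line of acute myeloid leukemia that carries a fusion of KMT2A with MLLT3. Every library was made from these cells after 72 h of exposure. There were 4 libraries from cells in DMSO, the solvent, 4 from cells in 1 µM MI-503, a small molecule that occupies the KMT2A pocket of Menin, and 3 from cells in MI-503 at the same 1 µM plus 100 nM PR-957 (ONX-0914), which inhibits PSMB8, a catalytic part of the immunoproteasome. The last group is called the combination, and its libraries are numbered 1, 2 and 4. None of the 11 libraries analyzed came from PR-957 alone, and the effect of PR-957 could be read only against a background of MI-503. All libraries came from 1 cell line, and the labels do not say whether replicates were separate cultures, so that p-values measure the spread between these libraries, which may be technical.

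KMT2A and KMT2B place methyl groups on lysine 4 of histone H3. Menin, the product of MEN1, holds the amino-terminal end of KMT2A together with LEDGF, the product of PSIP1, which reads methylated nucleosomes, while ASH2L belongs to the core that activates KMT2 enzymes. In KMT2A-rearranged leukemia the amino-terminal part of KMT2A, which keeps the Menin contact, is joined to a partner such as MLLT3, MLLT1, AFF1 or AFF4, proteins that gather the elongation machinery, and MLLT3 and MLLT1 also contact DOT1L, the methyltransferase for lysine 79 of histone H3. The drug addresses the contact of these proteins, whereas the libraries report RNA. In bulk RNA, fewer cells expressing a gene and less RNA per cell cannot be told apart.

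The contact that MI-503 blocks is encoded at the very start of both methyltransferase genes. The stretches below run from the start codon, 5′ to 3′ on the plus strand, and were read from the hg38 sequence. They are shown because they encode the part that competes with the drug for the pocket of Menin. Capitals mark the codons that match arginine, any residue, arginine, phenylalanine, proline, any residue, arginine and proline, the core of the Menin binding motif. These are codons 6 to 13 of KMT2A, within chr11:118436513-118436557, and codons 17 to 24 of KMT2B, within chr19:35718019-35718096, both in the first coding exon.
KMT2A: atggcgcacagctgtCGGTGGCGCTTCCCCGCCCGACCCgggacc
KMT2B: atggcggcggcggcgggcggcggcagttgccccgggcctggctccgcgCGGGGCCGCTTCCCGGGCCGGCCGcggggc
A fusion keeps this end of KMT2A, and gene counts add fragments of native and fused transcripts for KMT2A and for MLLT3. The 2 kinds cannot be told apart in these data.

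Counted fragments came to between 18.9 and 41.2 M per library. The 10 genes were covered by 196 (MLLT3) to 13763 (KMT2B) fragments in any 1 library. The label was matched by the markers: the 6 myeloid identity markers summed to between 1263 and 2084 CPM (counts per 1 M counted fragments) and the 11 markers of other cell types to between 2.54 and 4.81 CPM, with 3 to 5 of the 11 at 0 in each group and MS4A1 at 0 in all 11 libraries. The groups also differed in broad programs, whose part in the results below was not tested. The 6 myeloid identity markers summed to 1263 to 1341 CPM in DMSO, 1730 to 1825 CPM in MI-503 and 1663 to 2084 CPM in the combination. The 10 cell cycle genes summed to 3284 to 3616 CPM in DMSO, 2800 to 3072 CPM in MI-503 and 1938 to 2110 CPM in the combination, and 9, 10 and 10 of them were called lower in MI-503 against DMSO, the combination against DMSO and the combination against MI-503. The 10 monocyte maturation markers summed to 150.9 to 175.7 CPM in DMSO and 532.2 to 545.5 CPM in MI-503. In combination replicates 1, 2 and 4 they summed to 824.1, 2152 and 2859 CPM. Combination replicate 1 was the deepest library and stood apart. Among the 10041 tested genes that averaged 5 CPM or more, 31 differed by over 2-fold from the mean of the other replicates there, against 2 and 10 in combination replicates 2 and 4 and 0 to 1 in the other libraries. The comparisons of the combination were therefore repeated without it, and those values stand beside the results.

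Levels were first compared between genes in DMSO, per length, as CPM per kb of exon. MLLT1 was highest, at 53.1 ± 1.117 CPM per kb (SD, n = 4), and MLLT3 lowest, at 1.94 ± 0.098, a span of 27.4-fold. Between them lay DOT1L (41.0 ± 1.72), ASH2L (38.4 ± 1.06), KMT2B (26.7 ± 0.77), AFF1 (23.2 ± 1.33), MEN1 (21.1 ± 0.70), PSIP1 (18.7 ± 0.87), KMT2A (5.71 ± 0.34) and AFF4 (5.16 ± 0.38 CPM per kb). The library ranges of neighbors in this order overlapped only for KMT2A and AFF4, which did not differ beyond their spread. The range from MLLT1 to MLLT3 corresponds to the 92.5th and the 35.9th percentile of the 14683 tested genes. PSIP1 shares 28.6% of its exon bases with the neighbor SNAPC3, and fragments over shared exons were not counted. Over its unshared bases PSIP1 stood at 26.2 CPM per kb, which places it above AFF1 and MEN1. The other genes share between 0% and 6.60% of their exon bases.

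In MI-503 AFF1 stood at 15.2 ± 0.47 CPM per kb (n = 4), now behind MEN1 at 19.0 ± 0.51 CPM per kb. Over full exons AFF1 also passed behind PSIP1. Over unshared bases PSIP1 was already listed above AFF1 in DMSO, with overlapping ranges. ASH2L (35.4 ± 1.02) and DOT1L (34.1 ± 0.78 CPM per kb) exchanged places, with overlapping ranges, and over unshared bases DOT1L was still listed above ASH2L. In the combination KMT2B was listed second at 34.6 ± 2.28 CPM per kb (n = 3), with a range that overlapped that of ASH2L (32.2 ± 2.21). PSIP1 stood at 10.5 ± 1.26 CPM per kb over full exons. Over unshared bases it stood at 14.6 CPM per kb, where its range overlapped those of MEN1 and AFF1. AFF4, at 6.15 ± 0.33 CPM per kb, was listed above KMT2A at 5.41 ± 0.81 CPM per kb, and the ranges of these 2 genes overlapped. MLLT1 remained the highest and MLLT3 the lowest of the 10 in each group.

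**Figure D1:**
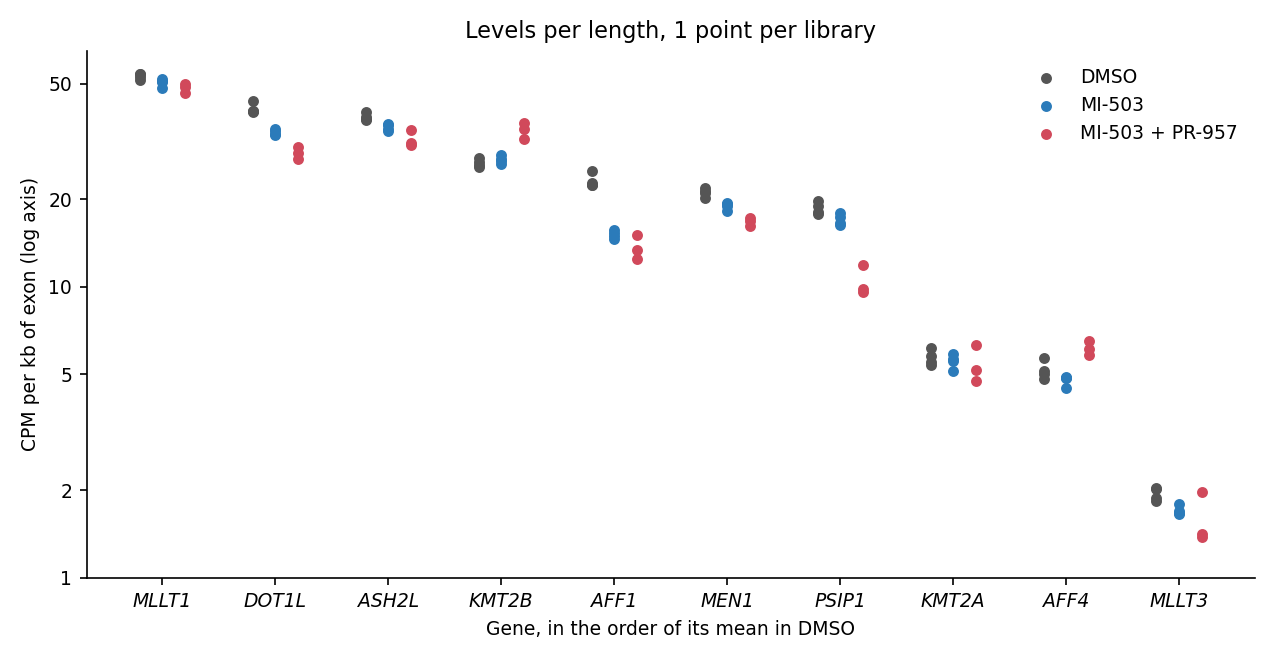
Level of each gene in CPM per kb of exon on a log axis, 1 point per library, for DMSO (grey, n = 4), MI-503 (blue, n = 4) and the combination (red, n = 3), with genes in the order of their mean in DMSO. MLLT1 lies near 50 and MLLT3 near 2 in each group, while the 3 red points of PSIP1, between 9.59 and 11.9, lie below all its other points.

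The question of the first comparison was how a Menin inhibitor changes the RNA of the complex itself. With MI-503, 4 of the 10 genes were called lower than in DMSO (MEN1, ASH2L, AFF1 and DOT1L) and 0 higher, at an edgeR adjusted p under 0.05. The count of higher genes was also 0 at an unadjusted p under 0.05, by DESeq2 and by limma-voom. It was 1 (KMT2B) with only the 2 groups compared. Of all 14683 tested genes, 29.3% were called lower and 22.0% higher in this comparison. The median log2 fold change was -0.12 over the 10 genes and -0.03 over all tested genes. This split depends on the scaling: with upper-quartile factors 3356 genes were called lower and 3968 higher, against 4307 and 3235 with TMM, and 2 of the 10 genes were called lower, since MEN1 (edgeR adjusted p = 0.0779; 0.00443 to 0.0779 over all alternatives) and ASH2L lost their call. The libraries of DMSO and MI-503 formed separate ranges for 5 of the 10 genes, beside 50.3% of all tested genes.

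The combination was compared with DMSO for the joint effect of both drugs and with MI-503 for what PR-957 added. Against DMSO, 7 of the 10 genes were called lower (MEN1, PSIP1, ASH2L, MLLT3, MLLT1, AFF1 and DOT1L), beside 32.8% of all tested genes, and 2 were called higher (KMT2B and AFF4), beside 31.7%. KMT2A was the gene without a call. The median over the 10 genes was -0.26, against 0.01 over all tested genes, and the groups did not overlap for 8 of the 10, beside 60.5%. Against MI-503, 4 were called lower (MEN1, PSIP1, ASH2L and DOT1L), beside 23.8%, and 2 higher (KMT2B and AFF4), beside 23.6%. Groups did not overlap for 5 of the 10 there, beside 47.6%. Without combination replicate 1 the count of genes lower than in MI-503 was 7, with KMT2A, MLLT3 and AFF1 added, and the counts against DMSO were still 7 lower and 2 higher, with KMT2A in place of MLLT1. The 2 comparisons against DMSO share their control libraries, and each is therefore given by its own values.

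**Figure D2:**
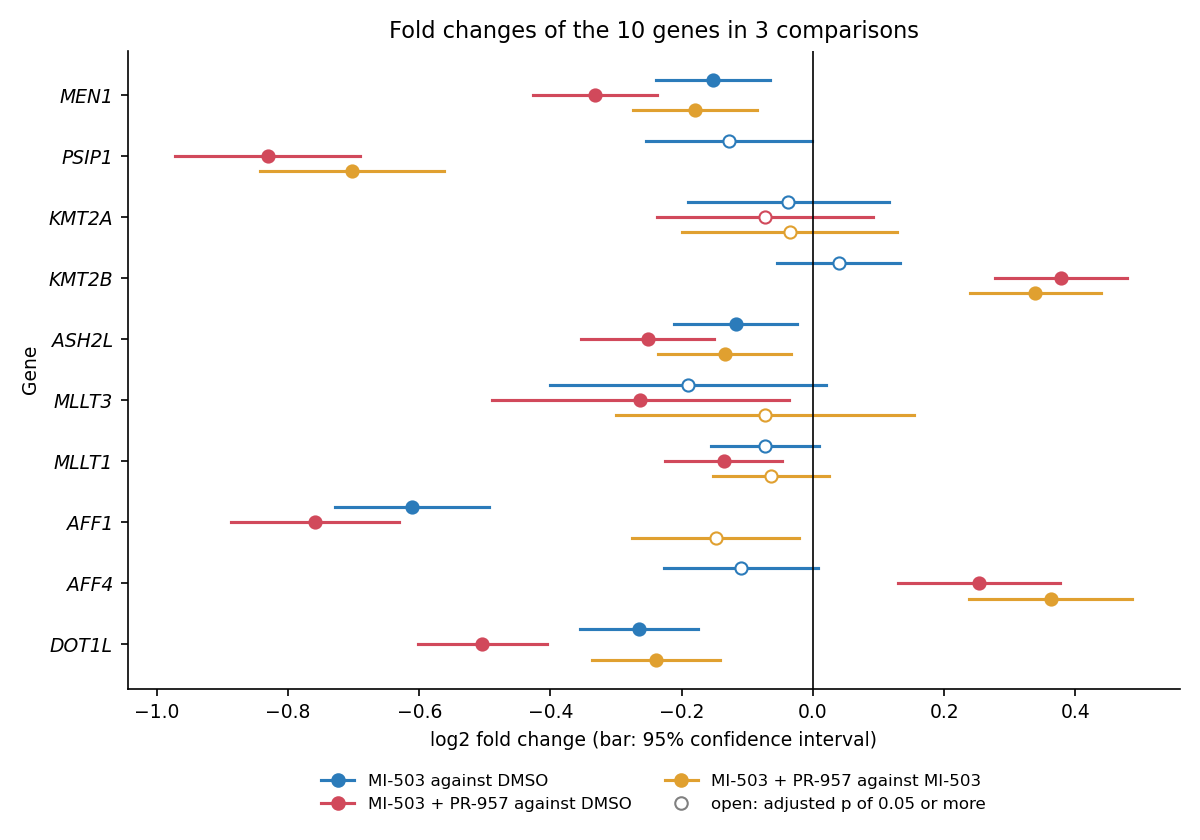
Fitted log2 fold change of each gene (points) with its 95% confidence interval (bars) for MI-503 against DMSO (blue), the combination against DMSO (red) and the combination against MI-503 (yellow), with open points where the edgeR adjusted p was 0.05 or more. KMT2B and AFF4 lie to the right of 0 in both comparisons of the combination, and AFF1 and PSIP1 lie farthest to the left.

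MEN1 encodes Menin, the target of the drug. Its levels were 80.5, 79.2, 82.7 and 76.4 CPM in DMSO replicates 1 to 4, 68.9, 73.4, 72.5 and 71.8 CPM in MI-503 replicates 1 to 4, and 65.0, 63.7 and 61.0 CPM in combination replicates 1, 2 and 4. The 3 groups formed 3 separate ranges, with DMSO at the top and the combination at the bottom. MEN1 fell by 10.0% with MI-503 (log2 fold change -0.15, SE 0.041, edgeR adjusted p = 0.00499) and by 20.6% with the combination (-0.33, SE 0.045, edgeR adjusted p = 4.8e-06). The step from MI-503 to the combination was -0.18 (SE 0.045, edgeR adjusted p = 0.00317). Without combination replicate 1 the log2 fold changes were -0.34 against DMSO and -0.23 against MI-503.

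PSIP1 encodes LEDGF, the tether that Menin and KMT2A share. It stood at 105, 94.8, 95.8 and 101 CPM in DMSO and at 86.7, 88.3, 95.2 and 92.6 CPM in MI-503, with overlapping ranges. In combination replicates 1, 2 and 4 it stood at 63.1, 50.9 and 52.3 CPM, below all other libraries. PSIP1 showed the largest fitted fold change of the 10 genes in the combination, a fall of 43.8% against DMSO (95% CI 38.0% to 49.0%, edgeR adjusted p = 9.33e-09). Against MI-503 the fall was 38.6% (edgeR adjusted p = 2.81e-07). With MI-503 alone its difference from DMSO was -8.50% (95% CI -16.2% to -0.12%) and did not pass after adjustment (edgeR adjusted p = 0.0839). Without combination replicate 1 the log2 fold change against DMSO was -0.92, compared with -0.83 with it, and against MI-503 it was -0.84.

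The calls for the 2 methyltransferases differed. Their ratio within libraries, given below, did not reach an adjusted exact permutation p under 0.05 in any comparison. In both comparisons of the combination its unadjusted exact permutation p was 0.0286, the smallest that these group sizes allow. KMT2A, whose fusion drives these cells, was called in none of the 3 comparisons. Its levels were 92.2, 103, 90.2 and 96.4 CPM in DMSO, 98.3, 94.8, 85.7 and 93.2 CPM in MI-503 and 105, 86.5 and 79.2 CPM in the combination. The first of the combination libraries was the highest of all 11 and the last the lowest of all 11, and the combination varied by 14.96% (SD over mean, n = 3), where counting alone gives 1.90%. The fitted difference from DMSO was -2.55% with MI-503 (95% CI -12.4% to 8.35%, edgeR adjusted p = 0.699) and -4.92% with the combination (95% CI -15.2% to 6.59%, edgeR adjusted p = 0.431). The call for the combination depended on replicate 1: without it KMT2A was lower by a log2 fold change of -0.19 against DMSO (edgeR adjusted p = 0.00863; 0.00863 to 0.978 over all alternatives) and of -0.19 against MI-503 (edgeR adjusted p = 0.00885; 0.00885 to 0.945 over all alternatives). Without combination replicate 4 the difference from DMSO was 0.01.

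KMT2B, which also binds Menin through the motif printed above, stood at 229.6, 237.1, 245.1 and 232.1 CPM in DMSO and 244.4, 251.2, 234.8 and 239.6 CPM in MI-503. In the combination it stood at 324.9, 310.2 and 285 CPM, above every other library. With MI-503 the difference was 2.79% (95% CI -3.68% to 9.69%, edgeR adjusted p = 0.484). With only the 2 groups compared, KMT2B was called higher there (log2 fold change 0.09, edgeR adjusted p = 0.0316, with 0.0316 to 0.728 over all alternatives). With the combination KMT2B rose by 30.01% against DMSO (log2 fold change 0.38, SE 0.048, edgeR adjusted p = 2.15e-06) and by 26.5% against MI-503 (0.34, SE 0.048, edgeR adjusted p = 1.93e-05). These calls held without combination replicate 1, with log2 fold changes of 0.35 and 0.27.

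ASH2L, a subunit of the core that KMT2 enzymes share, showed small steps. Its levels were 153, 145, 144 and 148 CPM in DMSO, 134, 132, 140 and 139 CPM in MI-503 and 118, 120 and 134 CPM in the combination, where replicate 4 lay within the range of MI-503. ASH2L was lower by 7.85% with MI-503 (edgeR adjusted p = 0.0347), a call that was lost in 13 of the 19 alternatives. With the combination it fell by 16.03% against DMSO (log2 fold change -0.25, SE 0.048, edgeR adjusted p = 1.99e-04). Against MI-503 the change was -0.13 (SE 0.048, edgeR adjusted p = 0.0296; up to 0.0758 over all alternatives). With replicate 1 left out, the log2 fold changes of the combination were -0.20 against DMSO and -0.13 against MI-503.

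**Figure D3:**
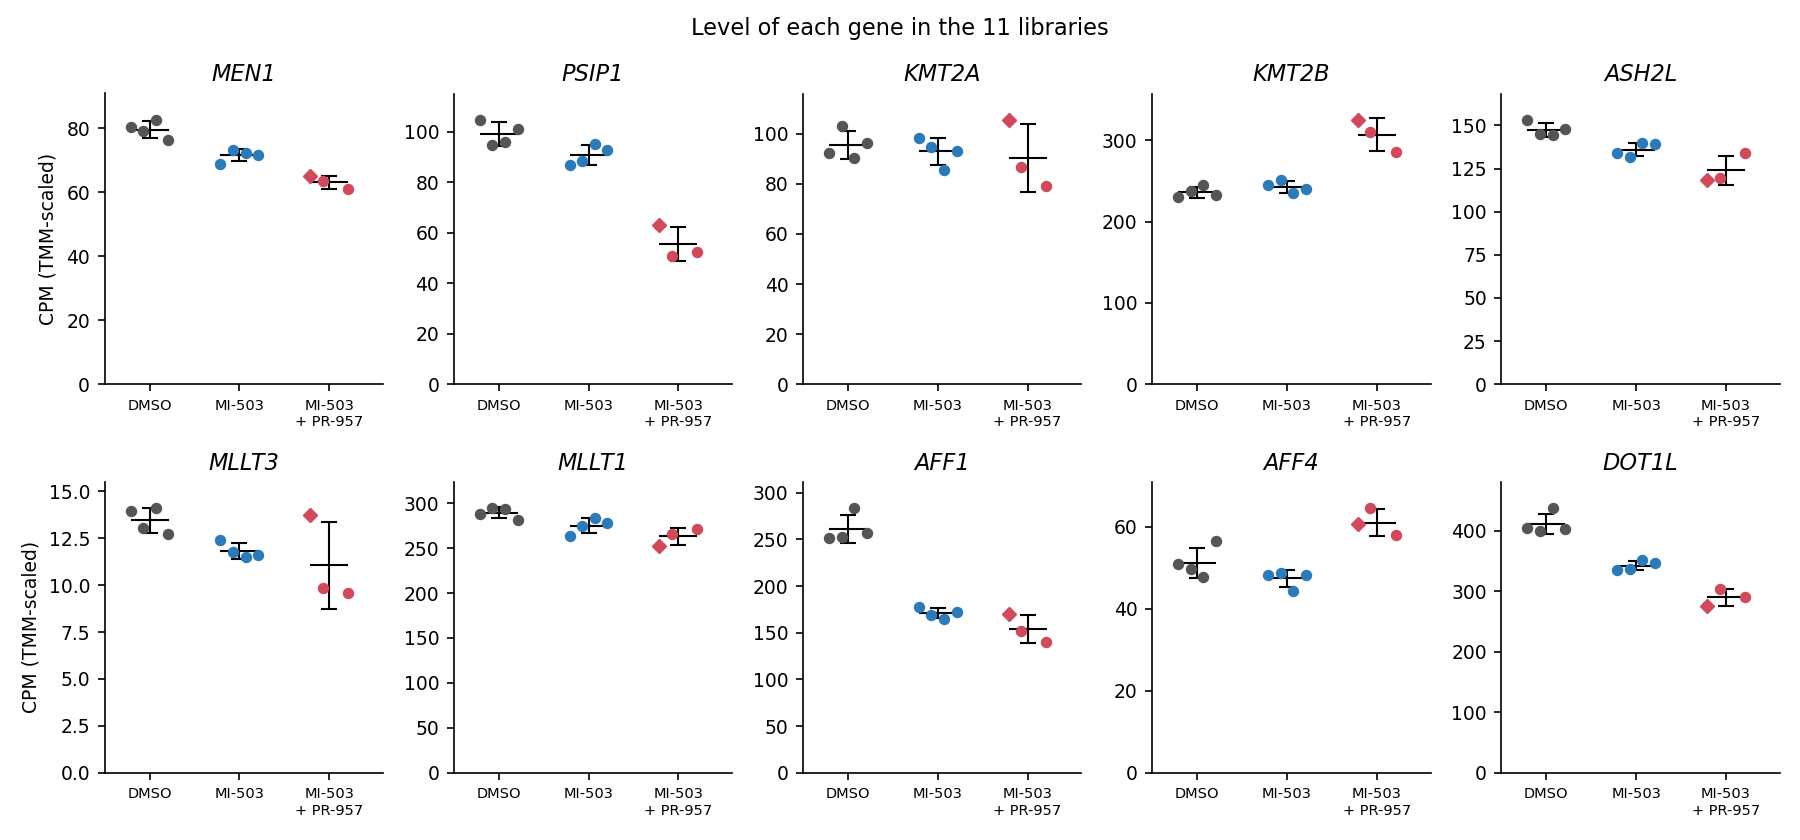
TMM-scaled CPM of each gene in the 11 libraries, with 1 point per library, a bar at the group mean and error bars of 1 SD (n = 4, 4 and 3), each axis starting at 0. The red diamond is combination replicate 1, which lies above the other 2 combination libraries for MEN1, PSIP1, KMT2A, KMT2B, MLLT3 and AFF1.

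MLLT3 (AF9) and MLLT1 (ENL) are related readers of acylated histones that recruit elongation factors and DOT1L. MLLT3, the fusion partner in these cells, was the least counted of the 10 genes, at 14.0, 13.05, 14.1 and 12.7 CPM in DMSO and 12.4, 11.7, 11.5 and 11.6 CPM in MI-503. In the combination it stood at 13.7, 9.83 and 9.60 CPM, so that replicate 1 lay within the DMSO range and the other 2 below all other libraries. Against DMSO the log2 fold change was -0.19 (SE 0.10, edgeR adjusted p = 0.122) with MI-503, although the libraries did not overlap, and -0.26 (SE 0.11, edgeR adjusted p = 0.0401) with the combination. The latter call was weak: it was lost in 11 of the 19 alternatives, and without combination replicate 1 the value was -0.45 (edgeR adjusted p = 8.05e-05; 8.05e-05 to 0.182 over all alternatives).

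MLLT1 stood at 287.9, 294.1, 293.5 and 281.1 CPM in DMSO, 263.9, 275.1, 283.2 and 277.5 CPM in MI-503 and 252.4, 265.8 and 271.3 CPM in the combination. The combination lay below DMSO in each library and overlapped MI-503. MLLT1 was lower by 9.01% in the combination against DMSO (edgeR adjusted p = 0.00926), and the difference with MI-503 was -4.91% (95% CI -10.2% to 0.67%, edgeR adjusted p = 0.131). The call was lost without combination replicate 1 (log2 fold change -0.09, edgeR adjusted p = 0.0757; 0.00695 to 0.138 over all alternatives).

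AFF1 (AF4) and AFF4 are scaffolds of the super elongation complex, and AFF1 is itself a frequent fusion partner of KMT2A. AFF1 showed the largest fitted fold change of the 10 genes with MI-503. It stood at 251.5, 252.5, 283.2 and 256.6 CPM in DMSO, 177.3, 168.6, 165.0 and 172.6 CPM in MI-503 and 170.4, 151.4 and 140.3 CPM in the combination. Every treated library lay below every DMSO library, and combination replicate 1 lay within the MI-503 range. AFF1 fell by 34.5% with MI-503 (95% CI 29.0% to 39.6%, edgeR adjusted p = 1.32e-07) and by 40.9% with the combination (95% CI 35.4% to 45.9%, edgeR adjusted p = 9.13e-09). The difference between the treated groups was -0.15 (SE 0.060, edgeR adjusted p = 0.0530). It passed in 6 of the 19 alternatives, among them RLE factors (edgeR adjusted p = 0.0299), DESeq2 (adjusted p = 0.0248) and limma-voom (adjusted p = 0.0481). Without combination replicate 1 it was -0.26 (edgeR adjusted p = 2.54e-04; 2.54e-04 to 0.123 over all alternatives), and the log2 fold change against DMSO was -0.82.

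AFF4 moved the other way in the combination. It stood at 50.8, 49.7, 47.7 and 56.4 CPM in DMSO, 48.2, 48.7, 44.4 and 48.3 CPM in MI-503 and 60.6, 64.5 and 58.0 CPM in the combination, above all other libraries. With MI-503 its difference from DMSO was -7.30% (95% CI -14.5% to 0.54%, edgeR adjusted p = 0.111). AFF4 rose by 19.2% in the combination against DMSO (log2 fold change 0.25, SE 0.059, edgeR adjusted p = 0.00115) and by 28.6% against MI-503 (0.36, SE 0.059, edgeR adjusted p = 8.21e-05). These log2 fold changes were 0.27 and 0.34 without combination replicate 1.

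Because AFF1 fell and AFF4 rose in the combination, the 250 bases before a RefSeq start of each gene are shown for comparison, 5′ to 3′ on the strand of the gene (GRCh38.p14). The AFF1 window is chr4:86934761-86935010, plus strand, the first of 2 starts in the table, and the AFF4 window is chr5:132963635-132963884, minus strand. Capitals mark matches, on either strand, to CACGTG (the E-box), CCAAT (the CCAAT box) or TGACNNNGC (the core of the antioxidant response element).
AFF1: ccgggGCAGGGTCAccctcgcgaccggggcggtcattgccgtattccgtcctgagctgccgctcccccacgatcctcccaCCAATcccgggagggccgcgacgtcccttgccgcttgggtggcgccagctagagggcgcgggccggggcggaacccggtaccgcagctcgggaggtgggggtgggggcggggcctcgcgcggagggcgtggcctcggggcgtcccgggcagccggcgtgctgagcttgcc
AFF4: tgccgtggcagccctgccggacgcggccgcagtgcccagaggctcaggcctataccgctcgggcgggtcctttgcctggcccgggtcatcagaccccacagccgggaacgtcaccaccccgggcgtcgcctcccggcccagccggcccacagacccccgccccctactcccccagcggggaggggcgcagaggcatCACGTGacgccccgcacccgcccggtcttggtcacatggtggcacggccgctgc
The AFF1 window holds 1 match to CCAAT and 1 to TGACNNNGC, and the AFF4 window 1 match to CACGTG. The window of the other AFF1 start holds 1 match to CCAAT and 0 to TGACNNNGC. Of 35116 windows of this length in the table, 32.0% hold CCAAT, 10.9% TGACNNNGC and 6.34% CACGTG. The table has 11 windows for 8 of the 10 genes, of which 6, 1 and 2 hold these motifs. These are counts of windows and not of genes: AFF1 and MEN1 each have 2 windows with CCAAT, and those of MEN1 overlap. The 11 windows hold 15 to 40 CpG each, against a median of 11 over the table. The 2 MEN1 windows, with 15 and 18 CpG, lie at percentiles 57.1 and 63.2 of all windows. These matches are letters in a window and were not tested for any role.

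DOT1L, which methylates lysine 79 of histone H3 on transcribed genes, stood at 404.0, 399.7, 436.5 and 402.9 CPM in DMSO, 334.7, 336.1, 351.0 and 345.6 CPM in MI-503 and 275.8, 303.8 and 289.8 CPM in the combination. As with MEN1, the 3 groups formed separate ranges. DOT1L fell by 16.8% with MI-503 (log2 fold change -0.26, SE 0.043, edgeR adjusted p = 6.21e-05) and by 29.5% with the combination (-0.50, SE 0.047, edgeR adjusted p = 5.11e-08). Against MI-503 the combination was lower by 15.3% (-0.24, SE 0.046, edgeR adjusted p = 4.29e-04). All 3 calls held in each of the 19 alternatives, and without combination replicate 1 the log2 fold changes of the combination were -0.45 and -0.23.

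Related genes were then compared within each library, since such a ratio does not depend on the scaling of libraries. Per exon base, the ratio of AFF1 to AFF4 was 4.36, 4.47, 5.22 and 4.00 in DMSO, 3.24, 3.05, 3.27 and 3.15 in MI-503 and 2.47, 2.07 and 2.13 in the combination. The 3 groups did not overlap. On the log2 scale the difference in the mean ratio was -0.50 with MI-503, -1.02 with the combination and -0.52 from MI-503 to the combination. Each of these had an exact permutation p of 0.0286 (two-sided), the smallest that these group sizes allow, and 0.0515 after adjustment over 9 such tests, which is above 0.05. Without combination replicate 1 the differences of the combination were -1.10 from DMSO and -0.60 from MI-503, where no exact permutation p under 0.0667 is possible.

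KMT2B exceeded KMT2A per exon base by 4.70-, 4.34-, 5.13- and 4.54-fold in DMSO, by 4.69-, 5.00-, 5.17- and 4.85-fold in MI-503 and by 5.81-, 6.76- and 6.78-fold in the combination. All combination libraries, replicate 1 included, lay outside the range of the other groups. The log2 ratio of KMT2A to KMT2B differed by -0.46 from DMSO and by -0.39 from MI-503 (exact permutation p = 0.0286, adjusted 0.0515, for both), and without combination replicate 1 by -0.54 and -0.46. MI-503 differed from DMSO by -0.08 (exact permutation p = 0.229, adjusted 0.294).

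MLLT1 exceeded MLLT3 by 27.4-fold in DMSO, 29.6-fold in MI-503 and 30.7-fold in the combination, as means of the log2 ratio over libraries. The combination spread widely, at 23.4-, 34.4- and 36.0-fold in replicates 1, 2 and 4. The log2 ratio of MLLT3 to MLLT1 differed by -0.11 with MI-503 (exact permutation p = 0.0857, adjusted 0.129) and by -0.17 with the combination (exact permutation p = 0.343, adjusted 0.386). From MI-503 to the combination it differed by -0.05 (exact permutation p = 0.857, adjusted 0.857). The combination differed by -0.36 from DMSO and by -0.25 from MI-503 without its replicate 1.

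**Figure D4:**
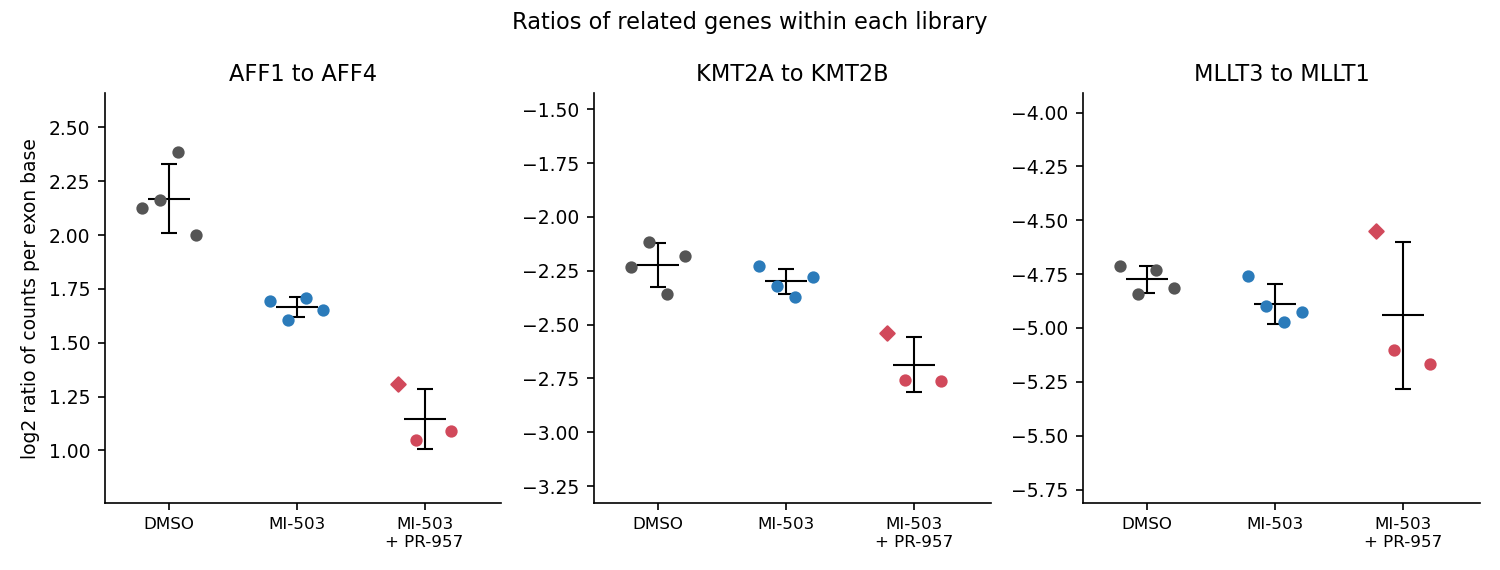
Log2 ratio of counts per exon base for AFF1 to AFF4, KMT2A to KMT2B and MLLT3 to MLLT1, 1 point per library, with the group mean and 1 SD (n = 4, 4 and 3). All panels span the same number of log2 units, and the diamond is combination replicate 1. The AFF1 to AFF4 ratio steps down over the 3 groups, from a mean of 2.17 to 1.67 to 1.15.

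Other genes of the pathway were taken in 4 lists. The shares of all tested genes to set beside their counts are 29.3% lower and 22.0% higher with MI-503, 32.8% and 31.7% for the combination against DMSO, and 23.8% and 23.6% against MI-503. For the 2 genes of each list with the smallest adjusted p, all 16 calls in the 2 comparisons of the combination held without combination replicate 1. The first held 15 other KMT2 enzymes and subunits, all tested. With MI-503, 8 were called lower and 3 higher, with a median log2 fold change of -0.16. The combination gave 7 lower and 3 higher against DMSO (median -0.11) and 4 lower and 3 higher against MI-503 (median -0.02), where 7 were lower without combination replicate 4. PAXIP1, a subunit of the KMT2C and KMT2D complexes, fell from 49.3 ± 2.501 CPM in DMSO (n = 4) to 38.5 ± 0.99 in MI-503 (n = 4) and 28.2 ± 1.04 CPM in the combination (n = 3, edgeR adjusted p = 1.01e-09 against DMSO). WDR5, which sits with ASH2L in the shared core, fell from 150.5 ± 6.04 CPM to 122.9 ± 5.62 and 101.9 ± 6.26 CPM (edgeR adjusted p = 7.22e-05 and 5.32e-08 against DMSO). PAGR1, the partner of PAXIP1, was lower in the combination than in MI-503 (45.4 ± 2.48 against 62.1 ± 2.56 CPM, edgeR adjusted p = 2.37e-06).

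Of 16 elongation partners, all tested, 6 were called lower and 4 higher with MI-503 (median -0.05). In the combination 5 were lower and 7 higher against DMSO (median 0.18), and 3 lower and 5 higher against MI-503 (median 0.05). Against MI-503 the counts were 1 lower and 1 higher without combination replicate 2, 1 was higher without replicate 4, and 1 was lower with DESeq2. ELL2, an elongation factor of the super elongation complex, rose from 2.59 ± 0.55 CPM in DMSO to 5.62 ± 0.29 CPM in MI-503 (edgeR adjusted p = 3.6e-06) and 7.06 ± 0.69 CPM in the combination (edgeR adjusted p = 9.31e-08). AFF3, another relative of AFF1 and AFF4, rose from 37.7 ± 7.75 to 78.8 ± 8.43 CPM with MI-503 (edgeR adjusted p = 4.15e-06). In the combination AFF3 was called lower than in MI-503 (log2 fold change -0.42) and higher than in DMSO (0.64). LEO1, a subunit of the PAF complex, fell from 57.2 ± 1.07 CPM in DMSO to 40.7 ± 1.41 CPM in the combination (edgeR adjusted p = 6.75e-08) and also differed there from MI-503, at 49.6 ± 1.34 CPM (edgeR adjusted p = 8.87e-05). EAF1, which binds ELL proteins, was higher in the combination than in MI-503 (43.0 ± 2.85 against 34.7 ± 1.21 CPM, edgeR adjusted p = 2.88e-04).

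Of 20 other genes known to be fused to KMT2A in leukemia, 19 were tested, and MLLT6 was not, with 0 to 4 counts per library. With MI-503 4 were called lower and 5 higher (median 0.03), with the combination 5 lower and 7 higher against DMSO (median 0.05) and 3 lower and 4 higher against MI-503 (median 0.01). Without combination replicate 1 the 3 lower became 7, and without replicate 4 or with DESeq2 they became 5. GAS7 rose from 62.1 ± 9.24 to 136.1 ± 6.98 CPM with MI-503 (edgeR adjusted p = 2.97e-08) and stood at 144.1 ± 20.9 CPM in the combination. MLLT10 (AF10), a partner of DOT1L, fell from 76.3 ± 3.63 to 61.0 ± 1.92 CPM with MI-503 (edgeR adjusted p = 1.97e-05). MLLT11 stood at 0.63 ± 0.20 CPM in DMSO and 0.66 ± 0.11 CPM in MI-503, and rose to 7.28 ± 0.32 CPM in the combination (edgeR adjusted p = 4.38e-11 and 1.41e-10). ABI1, an actin regulator, rose from 71.9 ± 1.77 CPM in MI-503 to 89.8 ± 5.08 CPM in the combination (edgeR adjusted p = 2.24e-05).

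Of 10 partners of Menin and LEDGF, all tested, 5 were called lower and 2 higher with MI-503 (median -0.14), 5 lower and 2 higher with the combination against DMSO (median -0.13), and 4 lower and 0 higher against MI-503 (median -0.06), with 0 higher also at an unadjusted edgeR p under 0.05, by DESeq2 and by limma-voom. The 2 higher with MI-503 became 1 without any 1 of 5 libraries (DMSO replicate 1, 3 or 4, or MI-503 replicate 1 or 2). SMAD3, a signal transducer that binds Menin, rose from 23.7 ± 1.61 to 48.2 ± 0.92 CPM with MI-503 (edgeR adjusted p = 8.66e-10) and was lower again in the combination, at 34.9 ± 3.22 CPM (edgeR adjusted p = 1.82e-05 against MI-503). The LEDGF partners DBF4 and CDCA7L were both called lower in all 3 comparisons. DBF4, the activator of the replication kinase CDC7, stood at 37.5 ± 1.43, 27.0 ± 1.24 and 19.8 ± 1.20 CPM in DMSO, MI-503 and the combination (edgeR adjusted p = 1.84e-06 and 1.01e-09 against DMSO). CDCA7L stood at 98.7 ± 3.34 CPM in DMSO, 85.7 ± 7.22 CPM in MI-503 and 59.3 ± 4.20 CPM in the combination (edgeR adjusted p = 2.57e-08 against DMSO and 4.32e-06 against MI-503).

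**Figure D5:**
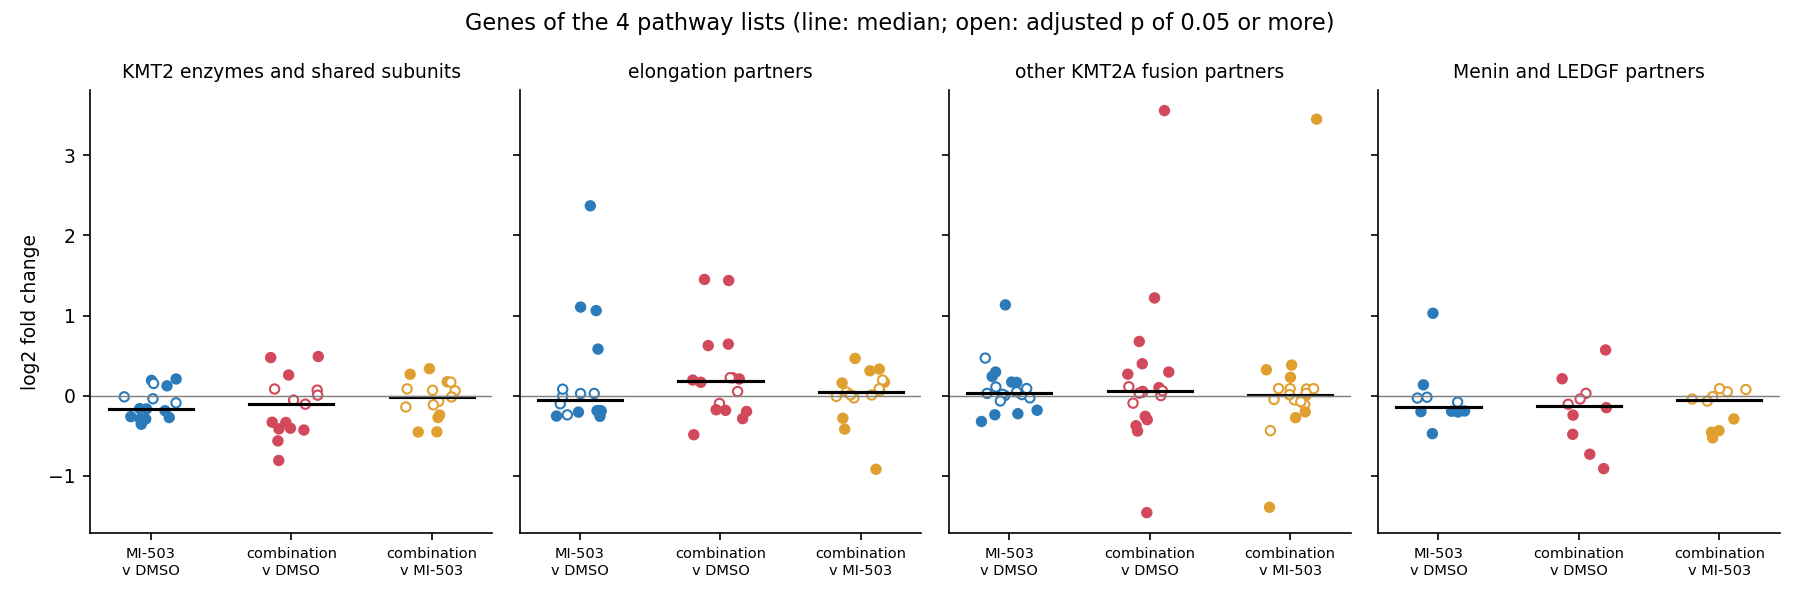
Log2 fold change of each gene of the 4 pathway lists in the 3 comparisons, with a black line at the list median and open points where the edgeR adjusted p was 0.05 or more. The medians lie between -0.16 and 0.18, and MLLT11 is the point above 3 in both comparisons of the combination.

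Each of the 10 genes was last set beside the 10041 tested genes of at least 5 CPM, by the Pearson r of log2 CPM over the 11 libraries, which all share the treatments. The 3 genes most like AFF1 were UNC5B (r = 0.986), MEIS1 (0.984), the HOX cofactor known as a KMT2A target, and MT1X (0.982). Their log2 fold changes with MI-503 were -1.50, -1.37 and -1.46, compared with -0.61 for AFF1. Those most like PSIP1 were CNTRL (0.995), BZW2 (0.995) and HDAC2 (0.994), with log2 fold changes of -0.07 to -0.10 with MI-503 and -0.49 to -0.58 with the combination against DMSO. VAV2 (0.988), NCK2 (0.982) and GTF2A1 (0.980) were most like MEN1. NAA10 (0.991), APEX2 (0.990) and MYBBP1A (0.989) were most like DOT1L.

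KMT2B was matched most closely by MMS19 (0.988), BICRA (0.987) and MAP2K2 (0.983), and AFF4 by ITCH (0.982), ARHGEF7 (0.960) and ADAL (0.948). DUSP23 (0.980) and PTPA (0.978) were among the 3 genes most like ASH2L. The matches were lower for MLLT1, with TRA2A (0.958), PPP6R1 (0.954) and POLR2I (0.953), and for MLLT3, with SMAGP (0.972), AGBL5 (0.951) and PKN3 (0.945). They were lowest for KMT2A, with ERAP2 (0.918), RSF1 (0.916) and RAP2A (0.909). Each list is the top of a ranking over 11 points in 3 groups and is a description of these libraries.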

How the data were processed

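RNA was extracted from MOLM-13 cells and made into libraries with a TruSeq RNA kit, sequenced as read pairs. Per the file headers, the authors counted fragments per gene with featureCounts 2.0.1 over RefSeq exons of hg38, ignoring strand and leaving out fragments that overlapped several genes or mapped to several places. The deposited values are raw counts, and the deposited gene length in bases (no score or normalized value) came from the same output. The submitters' processing notes also name Trimmomatic 0.39, STAR 2.7.10a and DESeq2. The deposited tables of fold changes and p-values from the authors were not used.

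Of 38557 genes, 14683 passed filterByExpr (minimum count 10, total 15). All 11 libraries entered 1 edgeR 4.0.16 quasi-likelihood model (R 4.3.3) with group means and TMM factors (0.956 to 1.056), two-sided, with Benjamini-Hochberg adjustment over 14683 genes and calls at an adjusted p under 0.05. The common dispersion was 0.00378. CPM are TMM-scaled, except in sums over markers. Log2 CPM used a prior count of 0.5. Ratios were compared by exact permutation over libraries. The test was checked on simulated counts with known changes.

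Alternatives were RLE and upper-quartile factors, 2 other filters, DESeq2 1.42.0, limma-voom 3.58.1, a replicate block, only the groups compared and leaving out each library. The members and lists were chosen with earlier results of these data known. Named genes were all members, the 2 genes of each pathway list with the smallest adjusted p in each comparison, and the 3 genes most like each member in Pearson r, of which 1 is not reported here. Promoter windows came from RefSeq (GRCh38.p14), matched by symbol. Totals of 18.9 to 41.2 M fragments set the depth.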

Additional observations from a re-analysis of the deposited data

Results flagged for a closer look

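In 20 groups of 4 libraries (10 genes in DMSO and in MI-503), a library was marked when its gap to the nearest other library passed Dixon's 95% critical value for 4 values, as a share of the range of the group. Chance marks about 1 in 20 such groups, and 3 were marked. DOT1L stood at 436.5 CPM in DMSO replicate 3, with a gap of 0.884 of the range of its group. AFF1 stood at 283.2 CPM in the same library, with a gap of 0.839. AFF4 stood at 44.4 CPM in MI-503 replicate 3, below the other 3 MI-503 libraries, with a gap of 0.884. The calls for DOT1L and AFF1 with MI-503 and with the combination against DMSO held without DMSO replicate 3.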

How the results depend on the processing

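Each comparison was recomputed under 19 alternatives. Of 570 fold changes of the 10 genes, 520 kept their direction and their side of the threshold, 32 lost a call, 11 gained one and 7 changed sign. The 7 were all of KMT2A, which had no call: with MI-503 against DMSO it was 0.0247 with upper-quartile factors and 0.011 with only the 2 groups compared, and leaving out 1 library gave -0.064 to 0.0076 (above 0 without DMSO replicate 2, MI-503 replicate 3 or combination replicate 1). Leaving out 1 library gave -0.1869 to 0.0142 for the combination against DMSO and -0.1945 to 0.0146 against MI-503, above 0 without combination replicate 4. The cause was not tested. With upper-quartile factors, 2 of the 10 genes were called lower with MI-503, and against DMSO the combination had 5 KMT2 enzymes and subunits higher and 3 elongation partners lower; the stricter filter also gave 5 of the former. With only the 2 groups compared, 1 of the 10 genes (KMT2B) was called higher with MI-503. With DESeq2, 1 elongation partner and 5 other fusion partners were lower in the combination than in MI-503. Over unshared exon bases 3 neighbors in the order of levels overlapped (KMT2B and PSIP1, PSIP1 and AFF1, KMT2A and AFF4), and with unscaled totals 2.

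Leaving out each library in turn gave these ranges, where a lone change is assigned to its library: 3 to 7 of the 10 genes lower in the combination than in MI-503 (7 without combination replicate 1), 4 to 7 KMT2 enzymes and subunits lower (7 without combination replicate 4), 1 to 3 elongation partners lower and 1 to 5 higher (1 and 1 without combination replicate 2, 1 higher without combination replicate 4) and 3 to 7 other fusion partners lower (7 without combination replicate 1, 5 without replicate 4). With MI-503 against DMSO, 1 to 2 partners of Menin and LEDGF were higher (1 without DMSO replicate 1, 3 or 4 or MI-503 replicate 1 or 2). In the order of levels within DMSO, 0 to 1 neighbors overlapped (0 without DMSO replicate 4).

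Correlations of deviations from the group means were -0.102 to 0.144 for same-numbered libraries, beside -0.132 to 0.116 for differently numbered ones. On these values the numbers were not taken to pair the libraries. A replicate block changed no call of the 10 genes: 4, 7 and 4 were lower and 0, 2 and 2 higher, and 4326 of all tested genes were lower and 3304 higher with MI-503.

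The 3 combination libraries and their spread limit the values for KMT2A and MLLT3 most. MLLT3 rests on 196 to 581 fragments per library, where counting alone gives a spread of 5.38% to 5.69%. Gene counts do not separate the fusion from native transcripts. Without a library of PR-957 alone, its effect is seen only beside MI-503.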
